A study of Mus musculus with 12 samples.

Results

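The genes described here encode the proteins of the mitochondrial ribosome. They were taken by a rule on the name, as the protein-coding genes whose symbol starts with Mrpl or Mrps followed by a digit. The table held 77 such gene IDs, with 76 names since Mrps23 has 2 IDs, of 40912 gene IDs in all. RNA was sequenced from spinal cord of mice at postnatal day 21 that carried a bacTRAP transgene, a ribosomal protein of the cytosol, Rpl10a, fused to EGFP so that tagged ribosomes and the mRNA on them can be pulled down with an antibody to EGFP. TRAP_Chat is the pulldown from line Tg(Chat-EGFP/Rpl10a)DW167Htz, in which regulatory sequences of Chat, the gene of the acetylcholine-making enzyme, drive the tag, and PreIP_Chat is RNA taken before the pulldown from the same line. TRAP_Snap25 and PreIP_Snap25 are the same from line Tg(Snap25-EGFP/Rpl10a)JD362Jdd, in which sequences of Snap25, a synaptic gene of neurons at large, drive it. Each of the 4 groups had 3 libraries. All mice carried an EGFP-tagged ribosomal protein, and no library came from a mouse without a tag. Nothing in the labels says whether the libraries of a group are from different mice. The p-values below therefore cover the spread among these libraries and no more, and that spread may be technical.

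Mitochondria keep their own ribosome, which makes the few proteins still encoded by mitochondrial DNA, all of them subunits of the respiratory chain and of ATP synthase. Its ribosomal RNAs, mt-Rnr1 of the small subunit and mt-Rnr2 of the large one, are transcribed inside the organelle. All of its proteins are encoded in the nucleus, translated on ribosomes of the cytosol and imported, so that their mRNAs can be held by a tagged cytosolic ribosome while the mitochondrial ribosome itself carries no tag. Some of these proteins have a counterpart in the bacterial ribosome, and others are found in mitochondria alone. Neurons depend strongly on oxidative phosphorylation, and mutations in several of these genes cause inherited disease in humans.

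The genes lie scattered over the genome and share no single promoter. RefSeq promoter windows of GRCm38.p6, which run from 250 bases before the annotated start to 50 bases after it, were on hand for 67 of the 76 names, in 73 windows. The following 5 windows are shown because they belong to genes on which the results below turn. Mrpl27, Mrps12 and Mrpl12 are among the genes with the largest rises in the Snap25 pulldown, and Mrpl46 and Mrps11 stand head to head and share 141 bases of window. Capitals mark exact matches, on either strand, to the ETS-family motif CCGGAAG, the NRF1 motif or the YY1 motif.

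Mrpl27, chr11:94653541-94653840, plus strand: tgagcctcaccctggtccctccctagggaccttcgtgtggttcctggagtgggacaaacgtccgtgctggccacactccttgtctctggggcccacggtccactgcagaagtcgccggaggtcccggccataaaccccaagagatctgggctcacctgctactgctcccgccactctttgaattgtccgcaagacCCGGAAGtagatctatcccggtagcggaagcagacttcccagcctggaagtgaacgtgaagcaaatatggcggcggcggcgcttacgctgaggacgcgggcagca

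Mrps12, chr7:28741772-28742071, minus strand: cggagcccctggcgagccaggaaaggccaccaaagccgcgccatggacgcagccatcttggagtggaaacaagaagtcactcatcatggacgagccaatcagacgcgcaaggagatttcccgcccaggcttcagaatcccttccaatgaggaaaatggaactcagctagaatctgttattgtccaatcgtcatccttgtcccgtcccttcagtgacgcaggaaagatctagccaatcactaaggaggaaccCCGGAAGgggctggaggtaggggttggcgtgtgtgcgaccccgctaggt

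Mrpl12, chr11:120484387-120484686, plus strand: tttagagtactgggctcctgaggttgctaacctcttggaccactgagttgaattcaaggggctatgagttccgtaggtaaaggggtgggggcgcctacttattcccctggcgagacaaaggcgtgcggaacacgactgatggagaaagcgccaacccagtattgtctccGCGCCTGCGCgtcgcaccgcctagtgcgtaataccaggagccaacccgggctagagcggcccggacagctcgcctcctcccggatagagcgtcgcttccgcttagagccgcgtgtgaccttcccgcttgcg

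Mrpl46, chr7:78783040-78783339, minus strand: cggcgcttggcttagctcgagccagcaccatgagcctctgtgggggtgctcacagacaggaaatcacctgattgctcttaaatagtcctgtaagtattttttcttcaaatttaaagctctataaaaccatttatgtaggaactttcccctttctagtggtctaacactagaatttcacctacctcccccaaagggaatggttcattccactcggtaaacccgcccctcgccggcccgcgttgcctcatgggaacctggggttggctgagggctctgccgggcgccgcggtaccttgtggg

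Mrps11, chr7:78782881-78783180, plus strand: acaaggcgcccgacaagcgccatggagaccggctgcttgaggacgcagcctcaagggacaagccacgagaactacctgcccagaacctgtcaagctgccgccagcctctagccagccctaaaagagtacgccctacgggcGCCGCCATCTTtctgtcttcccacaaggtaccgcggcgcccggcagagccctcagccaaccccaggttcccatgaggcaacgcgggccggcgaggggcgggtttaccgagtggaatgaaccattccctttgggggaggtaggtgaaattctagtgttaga

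The capitals in Mrpl27 and Mrps12 are ETS motifs, those in Mrpl12 are an NRF1 motif and those in Mrps11 are a YY1 motif read on the opposite strand, outside the bases it shares with Mrpl46. The capitals in Mrpl12 and Mrps11 spell the NRF1 and YY1 motifs searched, except that the fifth letter of the NRF1 motif could be any base and that the YY1 motif is printed as its reverse complement. None of the motifs stood in the Mrpl46 window. Of the 73 windows, 32.9% held the ETS motif, against 15.0% of the 14577 windows of tested genes and 8.86% of all 32851 windows. The NRF1 motif stood in 17.8% of them, against 8.85% of windows of tested genes and 4.60% of all windows. For the YY1 motif the shares were 6.85%, 1.28% and 0.633% in the same order. A TATAAA box was found in 6.85% of the windows of these genes and in 7.30% of those of tested genes, and CCAAT in 39.7% and 37.1%. The GC box, GGGCGG, was rarer in the windows of these genes, with 53.4% against 60.0% of those of tested genes. Both strands were searched for every motif. The ETS motif ends in the letters with which the YY1 motif starts, so that matches to the pair can overlap. These are counts of letters, and binding was not measured. The genes that rose in both pulldowns and those that rose in neither, which are described below, held the ETS motif in 11 of 36 windows and 4 of 15 windows, and the NRF1 motif in 8 and 3.

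Total counts ran from 10149346 to 20521699 per library, and 15905 genes with enough counts were tested with edgeR's quasi-likelihood test, with p-values adjusted by Benjamini-Hochberg over all of them and a threshold of 0.05. Of the 77 IDs, 74 passed the filter on low counts. Mrpl53 had 2 counts in all 12 libraries together, and the Mrps23 IDs had 2 and 0. For Mrpl53, 88.0% of the exon length is covered by another gene on either strand, and reads over such overlaps cannot be assigned with certainty. Levels below are CPM, read counts scaled to a common library total, after TMM scaling, which aligns libraries on the bulk of their genes. All 10 oligodendrocyte, 7 oligodendrocyte precursor and 9 astrocyte markers fell in both pulldowns, as did 7 of 9 microglial markers, and all 10 motor neuron markers rose in TRAP_Chat, against 4 of 10 in TRAP_Snap25. Of 10 markers of neurons at large 3 rose in TRAP_Chat and 1 in TRAP_Snap25. Of 10 inhibitory neuron markers 9 fell and 1 rose in TRAP_Chat, and 1 fell and 1 rose in TRAP_Snap25. Of 8 glutamatergic neuron markers 5 fell in TRAP_Chat and 2 rose in TRAP_Snap25. No marker of these lists was at 0 in all libraries of a pulldown. Summed oligodendrocyte markers were 2235 to 6020 CPM in TRAP_Chat, against 17660 to 23022 CPM in PreIP_Chat, and 1769 to 5365 CPM in TRAP_Snap25, against 16551 to 21884 CPM in PreIP_Snap25. Summed astrocyte markers were 208 to 461 CPM in TRAP_Chat, against 1744 to 1912 CPM in PreIP_Chat, and 177 to 443 CPM in TRAP_Snap25, against 1604 to 2375 CPM in PreIP_Snap25. What the loss of glial RNA contributes to the results below was not tested. Nor can more RNA of a gene per neuron be told apart from a larger share of neurons in such bulk samples.

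Summed over all members, mitoribosomal protein mRNA stood at 187% ± 17.7 of the input mean in TRAP_Chat and at 196% ± 16.3 in TRAP_Snap25 (SD, n = 3 each). In TRAP_Chat against PreIP_Chat 45 of the 74 tested genes rose and 0 fell, with 12.6% of all tested genes higher and 14.3% lower. In TRAP_Snap25 against PreIP_Snap25 48 rose and 0 fell, with a background of 9.69% higher and 12.7% lower. The median log2 fold change was 0.93 in the Chat line and 0.90 in the Snap25 line, while over all tested genes it was -0.062 and -0.0041. It was above 0 for 69 and 72 of the 74 genes, against 47.5% and 49.8% of all tested genes. At an unadjusted p under 0.05 the rises numbered 55 and 62, and the falls 0 in both. At that p 18.2% and 16.2% of all tested genes rose, and 20.8% and 19.1% fell. For 60 genes the 3 libraries of TRAP_Chat all lay above the 3 of PreIP_Chat, which held for 21.8% of all tested genes, and for 53 genes those of TRAP_Snap25 lay above PreIP_Snap25, which held for 16.6% of all tested genes. The count of rises leaned on single inputs. It was 26 without replicate 2 of PreIP_Chat and 27 without replicate 3, where 7.23% and 7.99% of all genes rose. In the Snap25 line it was 22 without replicate 1 of PreIP_Snap25 and 20 without replicate 2, where 4.48% and 4.10% of all genes rose. When only the groups compared were fitted, 31 genes rose in the Snap25 line, where 6.07% of all tested genes did. In that fit the calls of Mrpl3, Mrpl4, Mrpl11, Mrpl18, Mrpl32, Mrpl37, Mrpl39, Mrpl41, Mrpl45, Mrpl49, Mrps2, Mrps14, Mrps17, Mrps18a, Mrps22, Mrps25 and Mrps26 were lost, at values of 0.74 to 1.06. The medians moved less, from 0.84 to 0.94 in the Chat line and from 0.79 to 1.09 in the Snap25 line over all fits that left out 1 library.

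**Figure D1:**
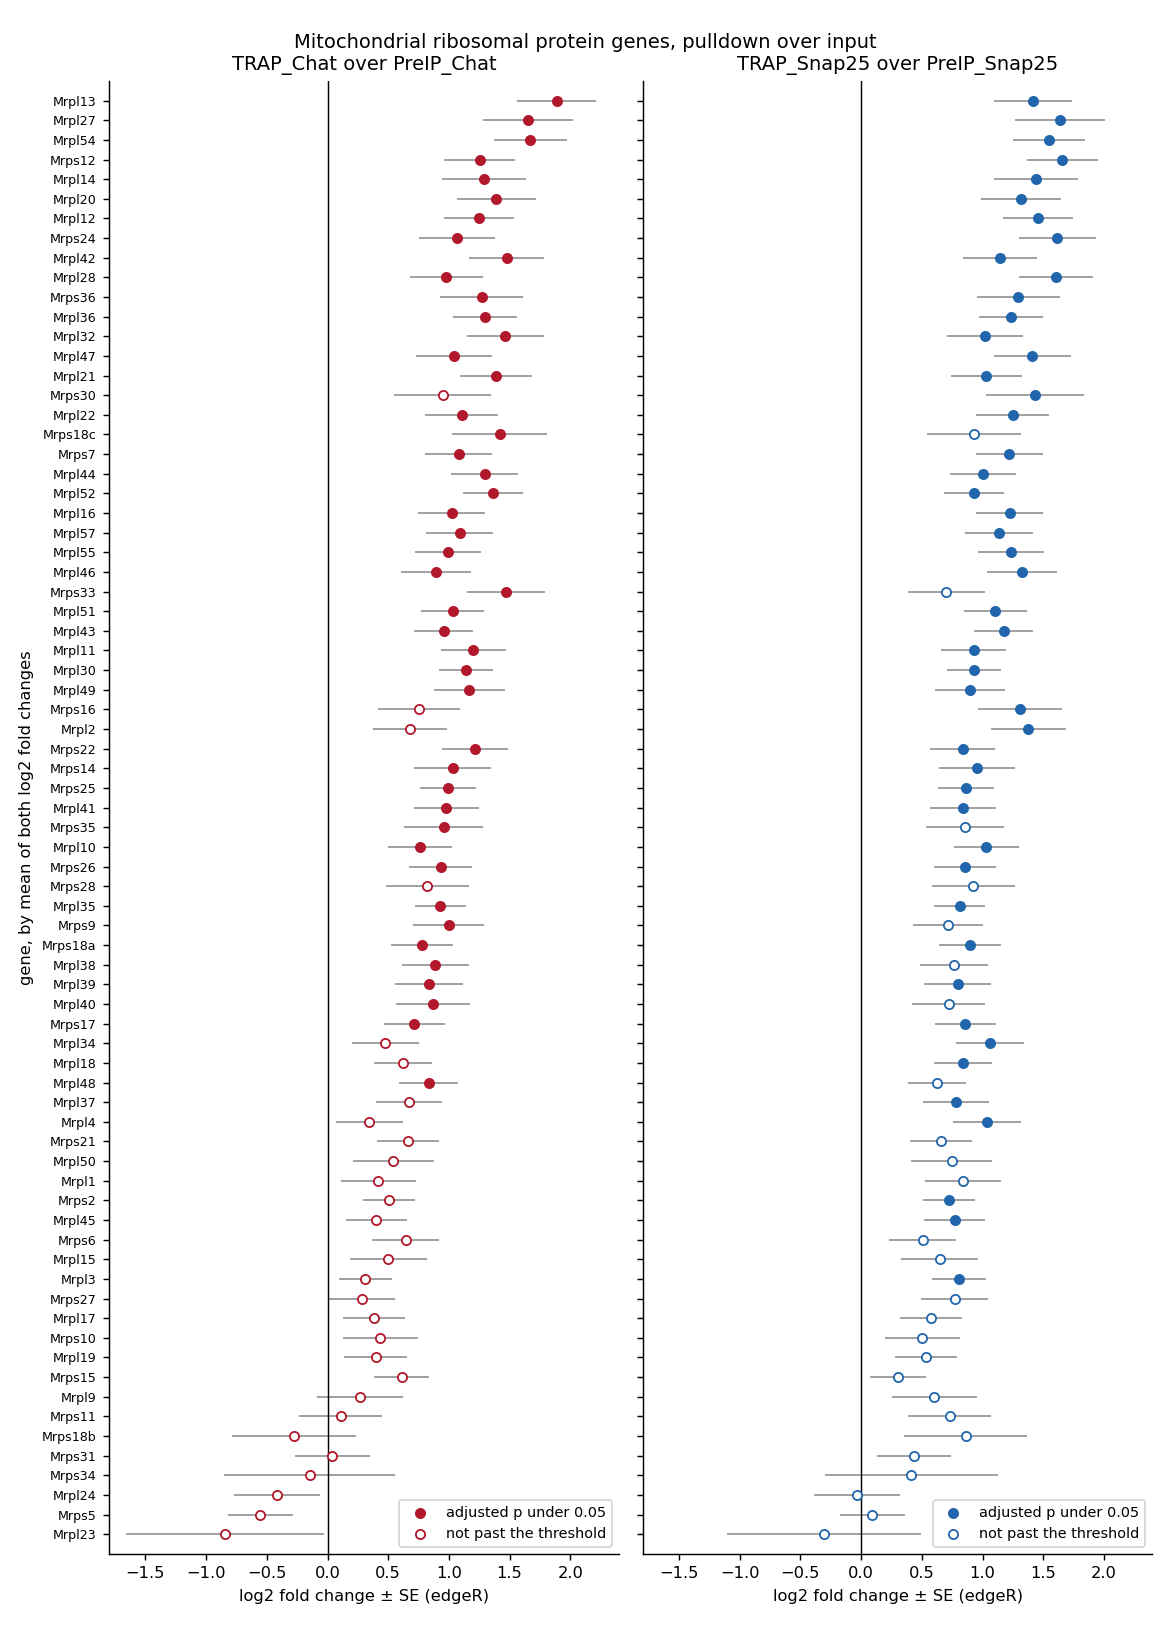
Log2 fold change with its standard error for the 74 tested mitoribosomal protein genes, TRAP_Chat over PreIP_Chat on the left and TRAP_Snap25 over PreIP_Snap25 on the right, with filled points for an adjusted p under 0.05 (edgeR, n = 3 libraries per group). In the left panel 69 genes and in the right panel 72 genes lie above 0, and no filled point lies below it.

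The sum over all these genes gives the same picture library by library. It was 4086, 3762 and 3378 CPM in TRAP_Chat, against 2130, 1883 and 1998 CPM in PreIP_Chat. In the Snap25 line it was 4150, 4790 and 4175 CPM in TRAP_Snap25, against 1909, 1938 and 2828 CPM in PreIP_Snap25. Pulldown and input did not overlap in either line, and replicate 3 of PreIP_Snap25 stood above the other inputs. As a share of raw counts, with no TMM scaling, the genes took 0.409% ± 0.045 in TRAP_Chat and 0.186% ± 0.023 in PreIP_Chat, and 0.501% ± 0.094 in TRAP_Snap25 and 0.194% ± 0.045 in PreIP_Snap25 (SD, n = 3 each). Mitochondrial ribosomal RNA filled much of the inputs. It made up 0.303% to 6.67% of counts in TRAP_Chat and 23.2% to 26.2% in PreIP_Chat, and 0.209% to 0.680% in TRAP_Snap25 and 25.3% to 40.7% in PreIP_Snap25. With it left out of the totals the shares were 0.421% ± 0.063 in TRAP_Chat and 0.247% ± 0.026 in PreIP_Chat, and 0.503% ± 0.094 in TRAP_Snap25 and 0.292% ± 0.070 in PreIP_Snap25.

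The RNA parts of the same ribosome fell. The mitochondrial rRNA of the small subunit, mt-Rnr1, fell with a log2 fold change of -3.21 ± 0.82 (SE) in the Chat line and -6.22 ± 0.95 in the Snap25 line, with adjusted p = 0.0089 and 0.00044 by edgeR. The rRNA of the large subunit, mt-Rnr2, fell with -3.85 ± 0.93 and -6.80 ± 1.06, with adjusted p = 0.0063 and 0.00054 by edgeR. Replicate 1 of TRAP_Chat held most of what remained, 59274 CPM of both rRNAs together against 3055 and 3073 CPM in the other TRAP_Chat libraries.

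**Figure D2:**
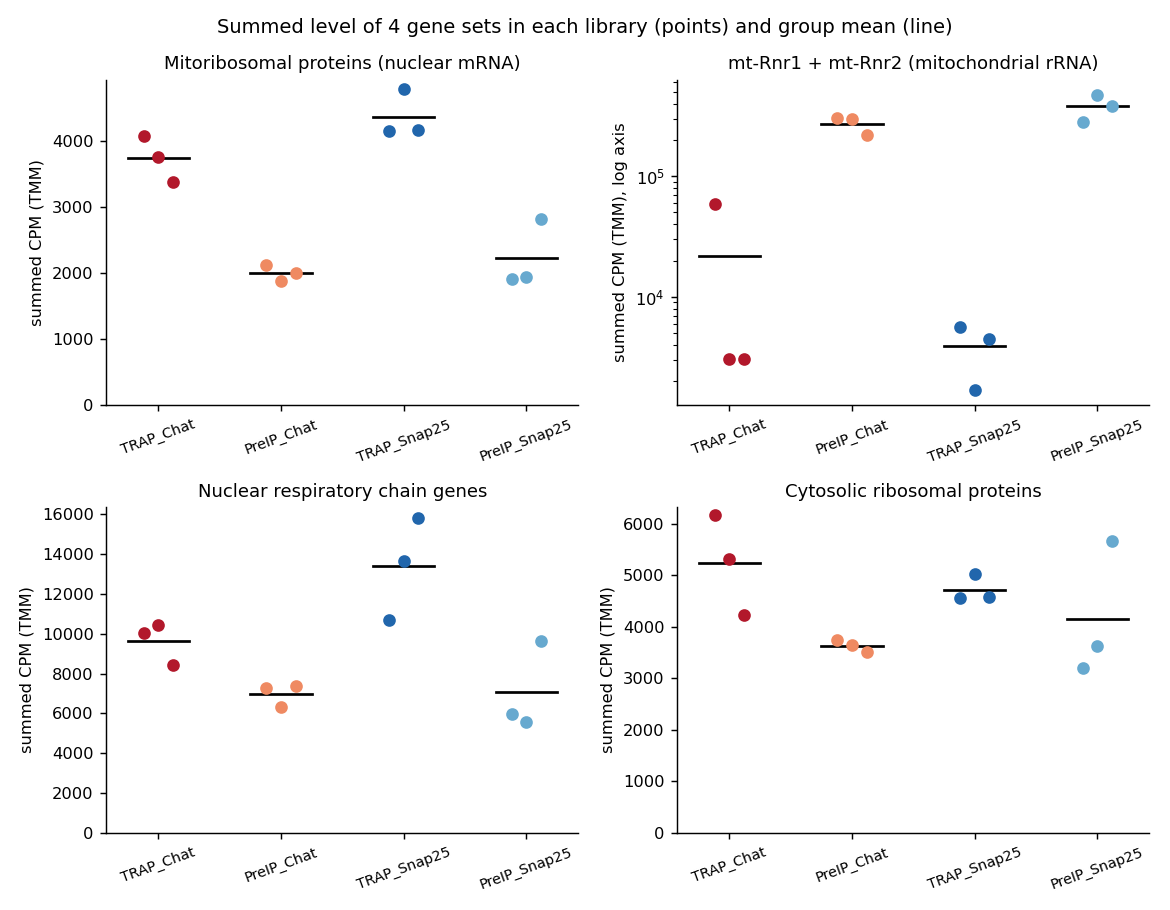
Summed CPM in each of the 12 libraries (points) with the mean of each group (line) for mitoribosomal protein genes, the mitochondrial rRNAs (log axis), nuclear respiratory chain genes and cytosolic ribosomal protein genes. The mitoribosomal sum lies between 3378 and 4790 CPM in the pulldowns and between 1883 and 2828 CPM in the inputs, and the mitochondrial rRNAs lie lower in every pulldown library than in any input library.

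Genes of both subunits rose. Of 48 tested proteins of the large subunit, in which Mrps30 and Mrps18a are counted because they sit there despite their names, 32 rose in TRAP_Chat and 37 in TRAP_Snap25, with medians of 0.95 and 1.01. Of 26 tested proteins of the small subunit 13 and 11 rose, with medians of 0.79 and 0.84. Summed levels were 193% ± 19.3 of the input mean for the large subunit and 173% ± 13.9 for the small one in TRAP_Chat, and 201% ± 21.9 and 185% ± 5.63 in TRAP_Snap25 (SD, n = 3 each). The subunits were not tested against each other. Split by origin, 23 and 28 of 44 proteins listed with a bacterial counterpart rose, with medians of 0.79 and 0.93. Of 30 listed as found in mitochondria alone 22 and 20 rose, with medians of 0.95 and 0.86. The latter list holds Mrps18b, which is related to a bacterial protein, so the split is not strict.

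Levels differed far more between the genes than between the groups. The mean over the 6 inputs ran from 0.583 to 90.7 CPM with a median of 28.5 CPM, and 3 genes lay under 5 CPM. Per kilobase of transcript the highest in the inputs were Mrpl30, Mrps21 and Mrpl52. Mrpl30, whose bacterial counterpart is a protein of the large subunit, had 294 CPM per kb in TRAP_Chat and 133 in PreIP_Chat, and 334 in TRAP_Snap25 and 176 in PreIP_Snap25. Mrps21, of the small subunit, had 190 and 120 CPM per kb in TRAP_Chat and PreIP_Chat, and 215 and 136 in TRAP_Snap25 and PreIP_Snap25. Mrpl52, a protein found in mitochondria alone, had 213 and 82.7 CPM per kb in the Chat pair and 209 and 110 in the Snap25 pair, pulldown first in each. At the low end Mrpl23 had 0.411 CPM per kb in TRAP_Chat and 0.736 in PreIP_Chat, and 0.702 in TRAP_Snap25 and 0.848 in PreIP_Snap25. Mrps34 lay between 2.12 and 2.86 CPM per kb in all 4 groups, and Mrps30 between 2.19 and 5.88. A processed pseudogene of Mrpl23 collected 116 counts over the 12 libraries, and 77.8% of the exon length of Mrps34 overlaps other genes, so the values of both are uncertain.

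Mrpl13, a large-subunit protein whose bacterial counterpart joins early in assembly, showed the largest rise in the Chat line. It had 98.6, 114 and 84.3 CPM in TRAP_Chat, against 20.9, 25.8 and 33.6 CPM in PreIP_Chat. All pulldown libraries lay more than 2-fold above every input. The log2 fold change was 1.89 ± 0.32 (SE), or 3.70-fold, with adjusted p = 0.000664 by edgeR. For the other line the values were 121, 112 and 54.2 CPM in TRAP_Snap25, against 27.0, 30.3 and 50.7 CPM in PreIP_Snap25, with 1.42 ± 0.32 and adjusted p = 0.00545 by edgeR. There the third pulldown library lay just above the highest input.

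Mrps12, a protein of the decoding centre where codon and anticodon are matched, showed the largest rise in the Snap25 line. Its levels were 71.6, 91.7 and 103 CPM in TRAP_Snap25, against 25.4, 16.9 and 41.8 CPM in PreIP_Snap25. The groups did not overlap, and the log2 fold change of 1.66 ± 0.30 (SE), or 3.16-fold, had adjusted p = 0.0013 by edgeR. In the Chat line 82.4, 72.3 and 63.1 CPM in TRAP_Chat stood against 36.1, 28.4 and 26.8 CPM in PreIP_Chat, a log2 fold change of 1.25 ± 0.29 with adjusted p = 0.0051 by edgeR.

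Mrpl27 lies at the peptidyl transferase centre, where amino acids are joined, and rose in both lines. Values were 57.2, 40.5 and 36.5 CPM in TRAP_Chat, against 13.9, 12.6 and 16.2 CPM in PreIP_Chat. For the other line they were 34.3, 90.7 and 29.6 CPM in TRAP_Snap25, against 13.0, 16.2 and 20.6 CPM in PreIP_Snap25. Neither pair overlapped, though replicate 2 of TRAP_Snap25 was far above its fellows. The log2 fold changes were 1.65 ± 0.37 and 1.64 ± 0.37, with adjusted p = 0.0042 and 0.0056 by edgeR, and the Snap25 value was 0.93, still past the threshold, without replicate 2 of TRAP_Snap25. Mrpl54, which has no bacterial counterpart, had 68.5, 69.4 and 35.8 CPM in TRAP_Chat, against 22.9, 14.4 and 17.2 CPM in PreIP_Chat. Its 44.0, 47.9 and 54.0 CPM in TRAP_Snap25 stood against 13.6, 15.1 and 21.3 CPM in PreIP_Snap25. It rose by 1.67 ± 0.30 and 1.55 ± 0.30 on the log2 scale, with adjusted p = 0.00087 and 0.0021 by edgeR.

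**Figure D3:**
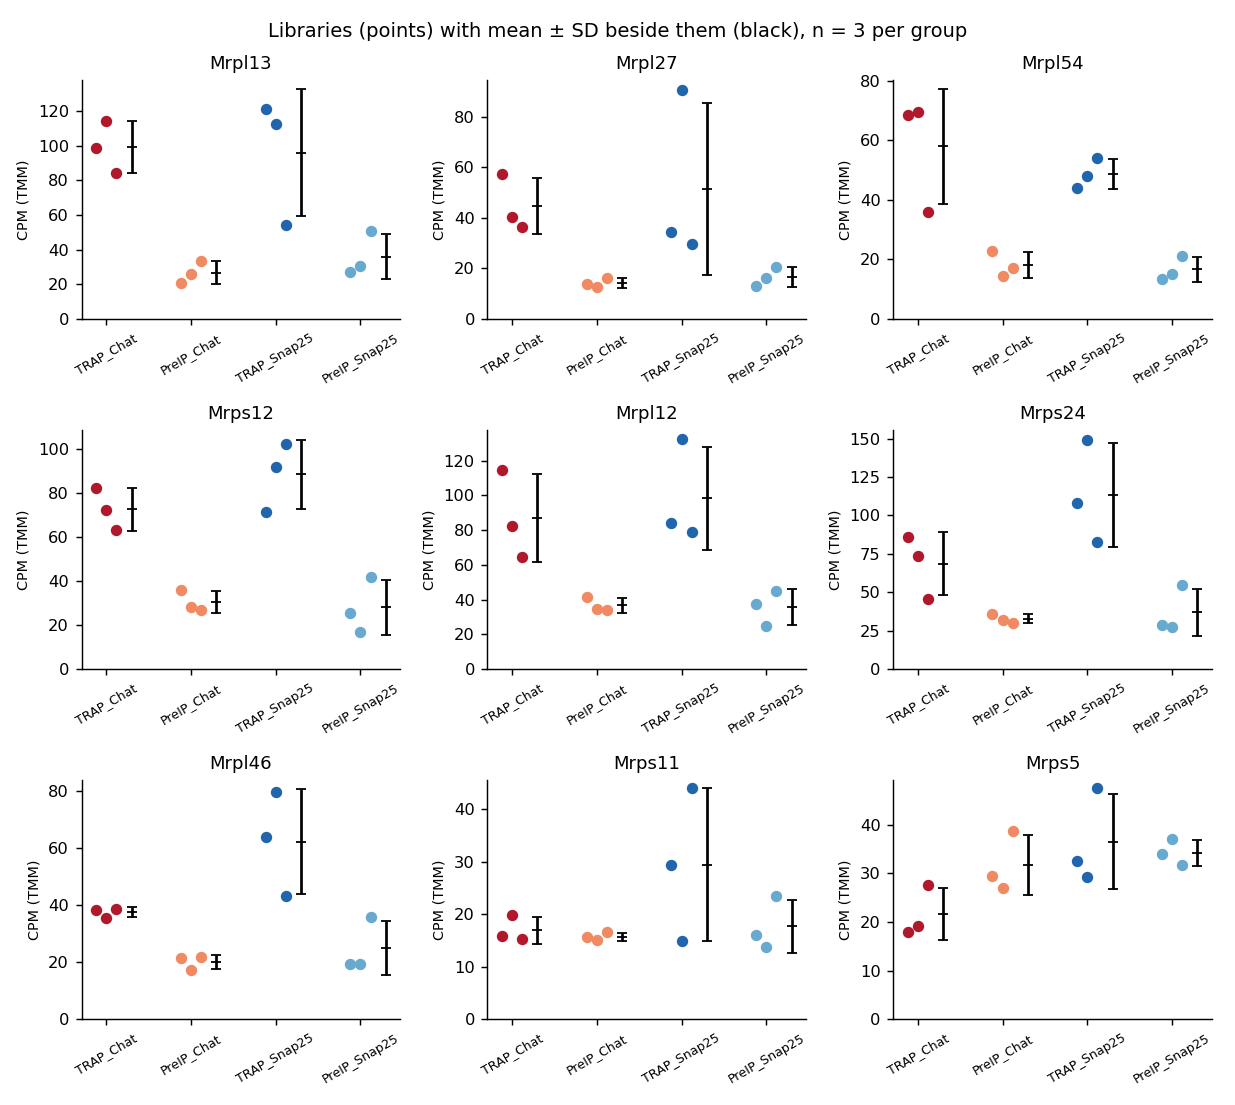
CPM of 9 mitoribosomal protein genes in each of the 12 libraries (points), with the mean ± SD of each group beside them (n = 3). Mrpl13, Mrpl27, Mrpl54, Mrps12, Mrpl12 and Mrps24 lie higher in every pulldown library than in every input of the same line, whereas Mrps5 lies lower in 2 of the TRAP_Chat libraries than in every PreIP_Chat library and overlaps in the Snap25 line.

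Among the remaining large rises in the Chat line, Mrpl42 rose by 1.47 ± 0.31 on the log2 scale in TRAP_Chat and by 1.14 ± 0.30 in TRAP_Snap25. Mrpl32, whose protein is processed by the m-AAA protease of the inner membrane before it joins the large subunit, rose by 1.46 ± 0.32 and 1.02 ± 0.31, and Mrpl20 by 1.39 ± 0.33 and 1.32 ± 0.33. Mrps33, of the small subunit, had 24.4, 18.9 and 22.1 CPM in TRAP_Chat, against 7.93, 6.80 and 8.88 CPM in PreIP_Chat, a rise of 1.47 ± 0.32 with adjusted p = 0.0035 by edgeR. Its 20.7, 18.5 and 18.5 CPM in TRAP_Snap25 stood against 7.14, 11.2 and 17.1 CPM in PreIP_Snap25, and the change of 0.70 ± 0.32 did not pass (adjusted p = 0.121, edgeR). Further large rises in the Snap25 line were Mrps24, the counterpart of a bacterial protein at the mRNA entrance, with 1.62 ± 0.32, Mrpl28 with 1.61 ± 0.31, Mrpl14 with 1.44 ± 0.35 and Mrps30 with 1.43 ± 0.40. In the Chat line these had 1.07 ± 0.31, 0.98 ± 0.30, 1.29 ± 0.35 and 0.95 ± 0.40, of which the value of Mrps30 did not pass (adjusted p = 0.0883, edgeR). The Snap25 call of Mrps30 was lost at 0.96 without replicate 2 of TRAP_Snap25 and at 1.20 and 1.30 without replicate 1 and 2 of PreIP_Snap25. In the same line the calls of Mrpl42, Mrpl32 and Mrpl20 were lost without replicate 1 or 2 of PreIP_Snap25, at values down to 1.03, 0.77 and 1.08, those of Mrpl42 and Mrpl32 also without replicate 1 of TRAP_Snap25, at 0.90 and 0.85, and that of Mrpl32 without replicate 2, at 0.92. The Chat calls of Mrps24, Mrpl28 and Mrpl14 were lost without replicate 1 of TRAP_Chat, at 0.87, 0.85 and 1.0, or replicate 3 of PreIP_Chat, at 1.01, 0.87 and 1.15, and also without replicate 2 of PreIP_Chat for Mrps24, at 1.04, and replicate 1 for Mrpl28, at 0.97.

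The stalk of the large subunit, which recruits the translation factors, is built of Mrpl10, Mrpl11 and Mrpl12, and all 3 genes rose in both lines. Mrpl12 had 114, 82.2 and 64.8 CPM in TRAP_Chat, against 41.7, 34.4 and 33.8 CPM in PreIP_Chat. Its 83.8, 132 and 78.7 CPM in TRAP_Snap25 stood against 37.5, 24.8 and 45.1 CPM in PreIP_Snap25, and pulldown and input did not overlap in either line. Its log2 fold changes were 1.25 ± 0.29 and 1.46 ± 0.29. Mrpl11 rose by 1.20 ± 0.27 and 0.93 ± 0.27, and Mrpl10 by 0.76 ± 0.27 and 1.03 ± 0.27, with adjusted p from 0.00254 to 0.0423 by edgeR. The Chat call of Mrpl10 was lost, with log2 fold changes of 0.53 to 0.84, without replicate 2 or 3 of TRAP_Chat, any one library of PreIP_Chat or replicate 3 of PreIP_Snap25, and also under the replicate block and with no filter on low counts. Its Snap25 call was lost without replicate 2 of PreIP_Snap25, at 0.87. That of Mrpl11 in the Snap25 line was lost, at 0.70 to 0.88, without replicate 2 of TRAP_Snap25 or replicate 1 or 2 of PreIP_Snap25.

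Around the peptidyl transferase centre Mrpl16 and Mrpl27 rose in both lines. Mrpl16 was 2.03-fold higher in TRAP_Chat, a call lost without replicate 2 of PreIP_Chat at a log2 fold change of 0.92, and 2.34-fold higher in TRAP_Snap25. Mrpl2, Mrpl3 and Mrpl4 rose in TRAP_Snap25, by 1.38 ± 0.31, 0.80 ± 0.22 and 1.04 ± 0.28, with adjusted p = 0.0053, 0.016 and 0.014 by edgeR. In TRAP_Chat their values were 0.68 ± 0.31, 0.31 ± 0.22 and 0.34 ± 0.28, with adjusted p = 0.111, 0.311 and 0.379 by edgeR. The test of the difference between the lines gave -0.70 ± 0.43 for Mrpl2, -0.49 ± 0.31 for Mrpl3 and -0.70 ± 0.39 for Mrpl4, none of which passed (adjusted p = 0.594, 0.612 and 0.540, edgeR). Mrpl4 had 80.3, 87.6 and 80.4 CPM in TRAP_Chat, against 76.6, 56.8 and 62.5 CPM in PreIP_Chat, and 84.5, 73.3 and 161 CPM in TRAP_Snap25, against 50.9, 42.3 and 61.8 CPM in PreIP_Snap25. The TRAP_Chat libraries were all above their inputs by a small margin, and replicate 3 of TRAP_Snap25 stood above all others. The Snap25 call of Mrpl4 was lost at 0.60 without that library, and at 1.02 and 0.91 without replicate 1 and 2 of PreIP_Snap25. That of Mrpl3 was lost at 0.72 without replicate 2 of TRAP_Snap25 and at 0.73 without replicate 1 of PreIP_Snap25.

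Of the small-subunit proteins along the mRNA path, Mrps7 rose by 1.08 ± 0.28 in TRAP_Chat and 1.22 ± 0.28 in TRAP_Snap25, with adjusted p = 0.0093 and 0.0058 by edgeR. The Mrps18 paralogs, which are related to the same bacterial protein, had unlike values. Mrps18a, in the large subunit, rose by 0.78 ± 0.26 and 0.90 ± 0.26. Mrps18c rose by 1.42 ± 0.39 in TRAP_Chat, with 47.7, 21.3 and 26.9 CPM there against 14.7, 10.6 and 10.6 CPM in PreIP_Chat, and had 0.93 ± 0.39 in TRAP_Snap25 (adjusted p = 0.0945, edgeR). Another gene on the same strand overlaps 23.2% of the Mrps18c exon length. The Chat call of Mrps18c was lost at 1.01 without replicate 1 of TRAP_Chat and at 1.33 without replicate 2 or 3 of PreIP_Chat, and its Snap25 value passed, at 1.16 and 1.35, without replicate 3 of TRAP_Snap25 or of PreIP_Snap25. Mrps18a lost its Chat call without replicate 1 of TRAP_Chat or any one library of PreIP_Chat, at 0.59 to 0.87, and its Snap25 call without replicate 2 of TRAP_Snap25 or replicate 1 or 2 of PreIP_Snap25, at 0.72 to 0.86. Mrps18b was low throughout, between 2.04 and 6.69 CPM over the 12 libraries. Its changes of -0.28 ± 0.51 and 0.86 ± 0.51 did not pass, and 30.5% of its exon length overlaps another gene.

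Among proteins with a further role, Mrpl44, which has a ribonuclease III fold, rose by 1.30 ± 0.27 and 1.01 ± 0.27 on the log2 scale in the Chat and Snap25 lines. Mrps36, also known as a subunit of the 2-oxoglutarate dehydrogenase complex, rose by 1.27 ± 0.34 and 1.29 ± 0.34. Pseudogenes of Mrps36 collected 21, 17 and 0 counts over the 12 libraries. The Mrps36 calls were lost without replicate 2 or 3 of PreIP_Chat in the Chat line, at 1.25 and 1.19, and without replicate 1 or 2 of PreIP_Snap25 in the Snap25 line, at 1.20 and 1.29. Mrpl44 lost its Snap25 call without replicate 2 of TRAP_Snap25 or replicate 1 or 2 of PreIP_Snap25, at 0.84 or more. Mrps27, a pentatricopeptide repeat protein of the small subunit, had 0.28 ± 0.28 and 0.77 ± 0.28, neither past the threshold (adjusted p = 0.479 and 0.0543, edgeR), though the Snap25 value passed at 0.76 and 0.77 without replicate 1 or 2 of TRAP_Chat. Ict1, the peptidyl-tRNA hydrolase that is built into the large subunit and falls outside the naming rule, had 60.7 ± 19.8 CPM in TRAP_Chat and 56.0 ± 1.03 CPM in PreIP_Chat, and 96.7 ± 8.48 CPM in TRAP_Snap25 and 57.8 ± 11.4 CPM in PreIP_Snap25 (SD, n = 3 each). Its log2 fold change was 0.11 ± 0.25 in the Chat line and 0.74 ± 0.25 in the Snap25 line, where it passed (adjusted p = 0.0437, edgeR). That call was lost, at 0.61 to 0.74, without any one library of PreIP_Chat, replicate 1 or 2 of TRAP_Snap25 or replicate 1 or 2 of PreIP_Snap25, and at 0.77 and 0.72 when only the groups compared were fitted or no filter on low counts was used.

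The genes that rose in each line overlapped. In both lines 38 of the 74 rose, 7 rose in the Chat line alone, 10 in the Snap25 line alone and 19 in neither. Of all tested genes 12.6% rose in the Chat line and 9.69% in the Snap25 line. The share of all tested genes that rose in both was not counted, so the overlap cannot be set against it. The 7 were Mrpl38, Mrpl40, Mrpl48, Mrps9, Mrps18c, Mrps33 and Mrps35, and the 10 were Mrpl2, Mrpl3, Mrpl4, Mrpl18, Mrpl34, Mrpl37, Mrpl45, Mrps2, Mrps16 and Mrps30. None of these 17 passed the test of the difference between lines. Of the 38 genes, 29 belong to the large and 9 to the small subunit, while of the 19 genes 8 belong to the large and 11 to the small one. Over the 74 genes the log2 fold change in the Chat line followed that in the Snap25 line with Pearson's r of 0.73 and Spearman's rho of 0.68. This is a description across genes, which are not independent replicates, of comparisons that share no library but do share the kit, the gene lengths and the gene base composition.

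**Figure D4:**
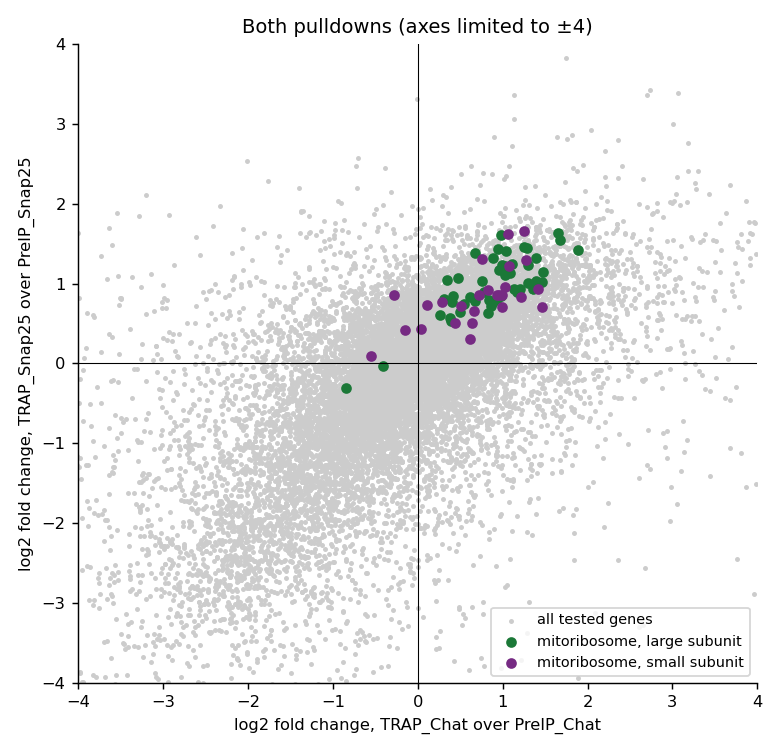
Log2 fold change of TRAP_Chat over PreIP_Chat (horizontal) and TRAP_Snap25 over PreIP_Snap25 (vertical) for all tested genes (grey, with those beyond ±4 outside the axes) and for mitoribosomal proteins of the large subunit (green) and small subunit (purple). Most coloured points sit in the upper right, where both changes are above 0, and 2 points lie below 0 on the vertical axis.

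A few members did not follow the rest. Mrps5, a small-subunit protein next to the decoding centre, had 17.9, 19.1 and 27.7 CPM in TRAP_Chat, against 29.5, 27.1 and 38.6 CPM in PreIP_Chat. The Snap25 values were 32.7, 29.3 and 47.7 CPM in TRAP_Snap25, against 34.0, 37.1 and 31.7 CPM in PreIP_Snap25. The log2 fold changes of -0.56 ± 0.27 and 0.09 ± 0.27 did not pass (adjusted p = 0.135 and 0.843, edgeR), and no other gene annotated in GENCODE M21 overlaps its exons. Mrpl24 had -0.41 ± 0.35 and -0.03 ± 0.35, and Mrps31 had 0.04 ± 0.31 and 0.44 ± 0.31. Mrpl23, the lowest of the tested genes, had -0.85 ± 0.81 and -0.31 ± 0.80, and Mrps34 had -0.15 ± 0.70 and 0.41 ± 0.71. All 5 genes were named here after their values were seen, except that Mrpl23 and Mrps34 were also to be named for their low levels.

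Mrpl46 and Mrps11, the head-to-head pair whose windows are printed above, differed in their values. Mrpl46 had 38.2, 35.4 and 38.6 CPM in TRAP_Chat, against 21.4, 17.3 and 21.8 CPM in PreIP_Chat, and rose by 0.89 ± 0.29 with adjusted p = 0.0304 by edgeR. Mrps11 had 15.8, 19.9 and 15.2 CPM in TRAP_Chat, against 15.6, 15.0 and 16.5 CPM in PreIP_Chat, and its change was 0.11 ± 0.34. The Mrpl46 libraries separated in the Chat line, and those of Mrps11 overlapped. In the Snap25 line Mrpl46 rose by 1.32 ± 0.29, and Mrps11 had 0.73 ± 0.34 (adjusted p = 0.138, edgeR). The Chat call of Mrpl46 was lost, at 0.79 to 0.94, without any one library of PreIP_Chat or replicate 1 or 3 of TRAP_Chat, and its Snap25 call was kept in every alternative. Whether the partners differ from each other was not tested. Their exons overlap each other on opposite strands, over 12.2% of the Mrpl46 exon length and 7.97% of that of Mrps11. Ndufb5 and Ndufs6, subunits of respiratory complex I whose genes overlap Mrpl47 and Mrpl36 on the opposite strand, rose together with them. Ndufb5 rose by 1.82 ± 0.29 and 1.86 ± 0.29, and Mrpl47 by 1.04 ± 0.32 and 1.41 ± 0.32, where the Chat call of Mrpl47 was lost, at 0.92 to 1.09, without any one library of PreIP_Chat or replicate 2 of TRAP_Chat. For Ndufs6 the rises were 1.12 ± 0.26 and 1.19 ± 0.26, and Mrpl36 was 2.46-fold and 2.35-fold higher. Some other partners differed from their members. Actl6a, which also overlaps Mrpl47, had -0.67 ± 0.52 and -1.28 ± 0.54. In TRAP_Chat Mif4gd, a partner of Mrps7, had -2.34 ± 0.47, and Slc5a3, a partner of Mrps6, had -1.46 ± 0.28 (adjusted p = 0.0021 and 0.0017, edgeR). There 6430562O15Rik, the partner of Mrps27, rose by 3.97 ± 1.07 (adjusted p = 0.012, edgeR). None of these partners passed in TRAP_Snap25. Since the strand setting of the counting is not known, reads in such overlaps may be assigned to either gene or to neither. Of the 44 tested members with no exon overlap, 26 rose in TRAP_Chat and 28 in TRAP_Snap25, with medians of 0.88 and 0.86.

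In the pulldowns the share of higher genes was smaller in longer transcripts, and these genes are short. The transcript with the longest coding sequence had a median length of 1252 bases in the 74 genes and 2846 bases in the 14132 tested protein-coding genes with a length. In transcripts from 700 to under 1000 bases 28.8% of all protein-coding genes rose in TRAP_Chat and 24.4% in TRAP_Snap25, whereas in those of 5000 bases or more 6.38% and 2.29% did. Of 15 mitoribosomal genes from 700 to under 1000 bases 10 rose in each line. Of 16 from 2500 to under 5000 bases 10 rose in TRAP_Chat and 11 in TRAP_Snap25, where 9.77% and 6.99% of all protein-coding genes did. The medians in that longer range were 0.94 and 0.89, against -0.19 and -0.070 over all. Only 3 members reached 5000 bases, and 1 of them rose in each line. Of 10 members from 1500 to under 2500 bases 4 rose in TRAP_Chat and 6 in TRAP_Snap25. There 14.4% and 13.3% of all protein-coding genes rose. Across the 74 genes Spearman's rho of the log2 fold change with transcript length was -0.29 in the Chat line and -0.28 in the Snap25 line. With the length of the coding sequence it was -0.43 and -0.30, and with exon length -0.28 and -0.40. What length contributes to the rise was not tested beyond these values.

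**Figure D5:**
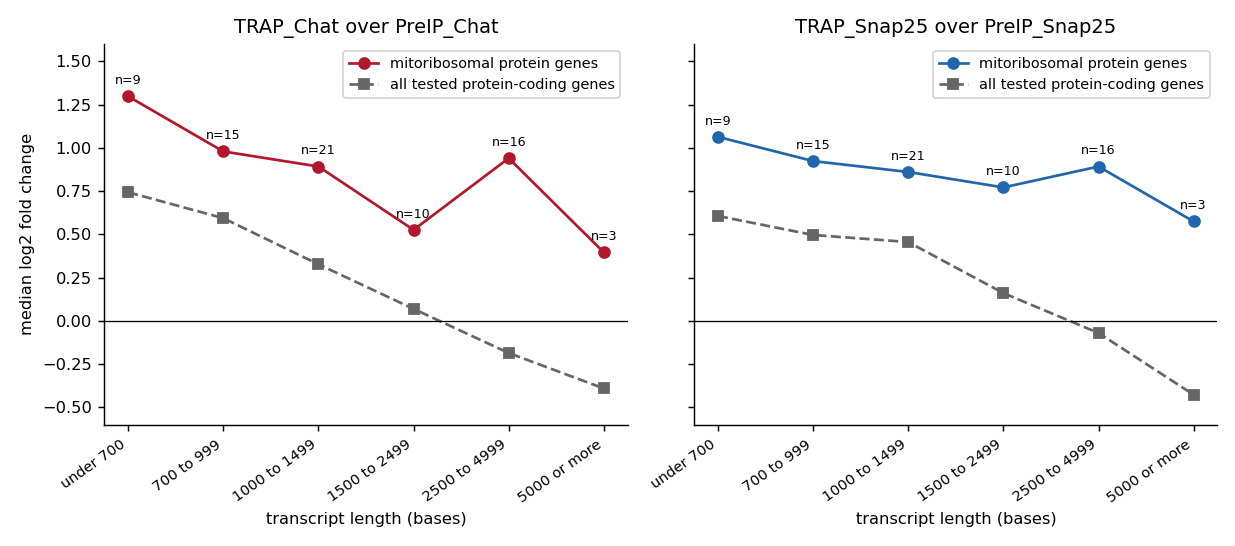
Median log2 fold change by transcript length for mitoribosomal protein genes (circles, with their number) and all tested protein-coding genes (squares), TRAP_Chat over PreIP_Chat on the left and TRAP_Snap25 over PreIP_Snap25 on the right. The median of all genes lies below 0 from 2500 bases on, while that of the mitoribosomal genes is above 0 in every range, with 3 genes in the last.

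No member passed the test between the pulldowns. In TRAP_Chat against TRAP_Snap25 0 of 74 were higher and 0 lower by edgeR, with a background of 3.97% higher and 2.77% lower, or 6.75% in either direction. With DESeq2 and with limma voom the count was 0 too. At an unadjusted p under 0.05, 8 were lower in TRAP_Chat and 0 higher, where 9.90% and 11.8% of all tested genes were. The log2 fold change was below 0 for 63 of the 74 and above 0 for 11, while it was above 0 for 50.6% of all tested genes. Its median was -0.25, against 0.0077 over all tested genes. For 6 genes the TRAP_Chat libraries all lay below those of TRAP_Snap25, which held for 9.47% of all tested genes, and for 0 they all lay above, which held for 10.3%. The smallest adjusted p was that of Mrps5, which had 17.9, 19.1 and 27.7 CPM in TRAP_Chat, against 32.7, 29.3 and 47.7 CPM in TRAP_Snap25, with -0.76 ± 0.27 and adjusted p = 0.105 by edgeR. Without replicate 3 of TRAP_Snap25 1 gene, Mrpl46, was called lower, with -0.94 ± 0.28 and adjusted p = 0.0441 by edgeR. The 95% interval of the log2 fold change lay within ±1 for 52 of the 74 genes, so that for these a difference of more than 2-fold between the pulldowns is outside the interval.

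The change from input to pulldown was likewise not called different between the lines for any member. In the test of that difference 0 rose more and 0 rose less in the Chat line by edgeR, with a background of 0.604% and 0.44%. An unadjusted p below 0.05 was found for 0 of the 74, where 6.09% of all tested genes were higher and 5.44% lower at that p. By DESeq2 and by limma voom the count was 0 as well. The median difference was -0.13. Estimates ran from -1.14 ± 0.72 for Mrps18b to 0.77 ± 0.44 for Mrps33. The interval reached 0.85 to either side at the median, and lay within ±1 for 25 genes, so that differences up to about 2-fold cannot be told from none for most of them. The inputs of the lines, PreIP_Chat against PreIP_Snap25, had 0 members called either way by edgeR, as 0.0% of all tested genes were. At an unadjusted p under 0.05, 1 was lower and 0 higher, where 0.578% and 0.264% of all tested genes were. With either DESeq2 or limma voom 0 members were called there. The libraries of PreIP_Chat all lay above those of PreIP_Snap25 for 0 members and all below for 4, which held for 4.19% and 3.85% of all tested genes. The median was -0.18, and it was 0.039 without replicate 3 of PreIP_Snap25, the input with the higher mitoribosomal sum.

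The other lists are to be read against 12.6% of all tested genes higher in TRAP_Chat and 9.69% in TRAP_Snap25. Of 6 mitoribosomal proteins with other names 2 rose in TRAP_Chat, Chchd1 with 1.52 ± 0.42 and Aurkaip1 with 1.14 ± 0.25, and 4 in TRAP_Snap25, Gadd45gip1 with 1.31 ± 0.30, Aurkaip1 with 1.18 ± 0.25, Dap3 with 0.76 ± 0.24 and Ict1. Aurkaip1 rose in both, with 187 ± 29.3 CPM in TRAP_Chat and 84.7 ± 9.55 CPM in PreIP_Chat, and 202 ± 44.7 CPM in TRAP_Snap25 and 88.9 ± 22.6 CPM in PreIP_Snap25 (SD, n = 3 each). Of 15 translation and mRNA-handling factors 3 and 5 rose, or 20% and 33.3%, with medians of 0.41 and 0.48. The largest rises there were those of Slirp, which binds mitochondrial mRNA together with Lrpprc, with 2.53 ± 0.38 and 1.58 ± 0.37, and Tsfm, the elongation factor Ts, with 1.44 ± 0.31 and 1.65 ± 0.31. The third rise in TRAP_Chat was that of Mrrf, the ribosome recycling factor, with 0.99 ± 0.24. Of 24 assembly factors 4 and 6 rose, or 16.7% and 25%, of which the share in TRAP_Chat is near that of all genes, with medians of 0.38 and 0.53, led by Malsu1, which binds the large subunit during assembly, with 1.39 ± 0.29 and 1.55 ± 0.29. Next came Nsun4, an rRNA methyltransferase, with 1.02 ± 0.33 in TRAP_Chat and Ngrn with 1.32 ± 0.31 in TRAP_Snap25. Of 12 genes for transcription and upkeep of mitochondrial DNA 1, or 8.33%, rose in TRAP_Chat, a share no higher than that of all genes, the single-strand binding protein Ssbp1 with 0.96 ± 0.32, whose value in TRAP_Snap25 was 0.62 ± 0.32 (adjusted p = 0.17, edgeR).

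Of the nuclear genes of the respiratory chain, 13 of 26 rose in TRAP_Chat and 19 in TRAP_Snap25, with medians of 0.80 and 1.05. Ndufa2 of complex I led in the Chat line with 1.87 ± 0.31 and Uqcrb of complex III in the Snap25 line with 2.03 ± 0.36, each followed by Ndufa6 of complex I with 1.87 ± 0.40 and 2.02 ± 0.40. Of 18 genes for import, the outer membrane and the matrix 6 and 7 rose, with medians of 0.38 and 0.59, led by Timm50, of the inner membrane translocase, and the channel Vdac3 in TRAP_Chat with 1.07 ± 0.35 and 1.02 ± 0.26, and by Phb, a prohibitin of the inner membrane, and Tomm40, the import pore, in TRAP_Snap25 with 1.25 ± 0.28 and 1.10 ± 0.30. The 81 tested proteins of the cytosolic ribosome, which include the tagged Rpl10a, had medians of 0.51 and 0.19, with 18 higher and 1 lower in TRAP_Chat and 3 higher and 1 lower in TRAP_Snap25. The higher shares of 22.2% and 3.70% stand against 12.6% and 9.69% of all tested genes, so that the share in TRAP_Snap25 is below that of all genes. The lower ones were Rpl10a itself in TRAP_Chat, with -1.22 ± 0.44 and adjusted p = 0.0475 by edgeR, and Rpl10 in TRAP_Snap25, with -2.13 ± 0.62 and adjusted p = 0.0213 by edgeR. Both were named after their values were seen. Summed over all 81 cytosolic genes, the level was 5235 ± 974 CPM in TRAP_Chat and 3632 ± 118 CPM in PreIP_Chat. In the Snap25 line it was 4719 ± 264 CPM in TRAP_Snap25 and 4157 ± 1319 CPM in PreIP_Snap25 (SD, n = 3 each). The lists were not tested against each other.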

How the data were processed

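The 12 libraries share 1 table of counts, whole reads per Ensembl gene with no scaling, as deposited by the authors. The submitters' processing notes name STAR and HTSeq. Tool versions, the build, the annotation release and the strand setting: not given in the sources used here. Total RNA (TRIzol, DNase, column) was amplified with a Nugen Ovation kit, per the labels' protocols. Of 41736 lines, 824 that repeat another line were dropped. Counts were filtered with filterByExpr, scaled by TMM and fitted with edgeR 4.0.16 in R 4.3.3, with 1 mean per group, p-values two-sided and adjusted over 15905 genes. Standard errors and 95% intervals come from the quasi-likelihood F statistic and its degrees of freedom. The pipeline was tested on simulated data. Alternatives were RLE or no scaling, totals without mitochondrial rRNA, DESeq2 1.42.0, limma voom 3.58.1, other filters, only the groups compared, a replicate block and each library left out. GENCODE M21 gave transcript lengths and overlaps, and RefSeq (GRCm38.p6) the promoter windows, matched by symbol. No promoter position was compared with the counts, but numbers of windows with a motif were set beside the calls, without a test. Members and lists were chosen with earlier results of these data known. The rule for genes named in full was the 8 largest rises per pulldown among called genes whose libraries do not overlap, genes named for a role, and the highest and lowest per length. Mrpl46, Mrpl36 and Mrpl47 with their partners, the named partners of Mrps6, Mrps7 and Mrps27, and Mrps5, Mrps11, Mrpl24 and Mrps31 were chosen after their values were seen.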

Additional observations from a re-analysis of the deposited data

How the results depend on the processing

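No called member changed direction under any alternative. The median between the inputs changed sign in 1 fit, and Ict1 in the Chat line, which was not called, ran from -0.10 without replicate 1 of TRAP_Chat to 0.35 without replicate 3. Without TMM scaling the medians were 1.16 in the Chat line, 1.29 in the Snap25 line and -0.089 between the inputs, and 55 and 67 members rose, while the medians of all tested genes moved to 0.17, 0.38 and 0.092. Of all tested genes 16.6% and 20.7% rose there, against 12.6% and 9.69% with TMM scaling. When only the compared groups were fitted, 31 members rose in TRAP_Snap25, where 6.07% of all genes did; the cause was not tested. With mitochondrial rRNA left out of the totals, the shares were 0.247% in PreIP_Chat and 0.292% in PreIP_Snap25. When each library was left out in turn, 26 to 47 members rose in TRAP_Chat and 20 to 53 in TRAP_Snap25, where 7.23% to 14.3% and 4.10% to 10.2% of all tested genes rose. In the same fits 0 to 1 members were lower in TRAP_Chat than in TRAP_Snap25. Medians lay between 0.79 and 1.09 in the Snap25 line, between -0.28 and -0.0061 for the difference between lines and between -0.27 and 0.039 between the inputs. Over the 21 alternatives, 23 of the 45 rises in TRAP_Chat and 19 of the 48 in TRAP_Snap25 were called in every one. With the replicate block 46 and 50 members rose, and 0 were called in the other comparisons. Same-numbered input and pulldown deviated together with correlations of 0.060, 0.102 and 0.127 in the Chat line and -0.037, 0.167 and 0.147 in the Snap25 line, so the numbers were not taken as pairs. Same-numbered input and pulldown also share a suffix in their labels, whose meaning the labels do not give, and 1 suffix stands in both lines, for replicate 2 of the Chat and replicate 1 of the Snap25 libraries. If it marks shared tissue, the values of the replicate block apply to pulldown against input within each line. Between the pulldowns and between the inputs that block joined libraries by replicate number. That does not match the suffix found in both lines, which no fit took into account. Tissue shared between lines is therefore not covered. Every TRAP_Chat library correlated best with its own number, and replicates 1 and 3 of TRAP_Snap25 did not. The pulldowns varied more than the inputs, with biological coefficients of variation of 0.479 in TRAP_Chat, 0.231 in PreIP_Chat, 0.496 in TRAP_Snap25 and 0.285 in PreIP_Snap25.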
